A study of Drosophila melanogaster with 28 samples.

Results

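Truncated HMR was profiled with both anti-FLAG and anti-HMR on 4 chromatin preparations of Drosophila SL2 cells, and these pairs of peak lists are compared here. The preparations are named by their input libraries AL02, AL20, AL56 and AL64, and they gave 8 of the 18 peak lists among the 28 samples of the series. Overlapping peaks of the 8 lists were joined where they shared at least 1 bp, which gave 5562 regions. SL2 is a cell line of embryonic origin. The cells were stably transfected with HMR that lacks its C-terminus and carries FLAG and HA tags (HMR dC-tg), together with Myc-tagged LHR, both under a copper-inducible metallothionein promoter, and were induced for 20 to 24 h with 250 µM CuSO4. Anti-FLAG precipitated the transgene product alone, whereas anti-HMR 2C10 targeted total HMR, because the cells kept their endogenous full-length copy. Anti-FLAG was coupled to the beads directly and anti-HMR through an anti-rat IgG, so antigen and coupling cannot be told apart. The same comparison in cells with full-length HMR-tg, made on 4 other preparations, is used only where a difference between the constructs was tested.

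HMR (Hybrid male rescue) is a MADF and BESS domain protein that acts with LHR and the heterochromatin protein HP1a, and it is known for its part in the lethality of hybrids between fly species. Its C-terminal BESS domain binds LHR. On chromosomes HMR is found near centromeres, in HP1a-rich heterochromatin, at gene promoters and at gypsy-type insulators, which are bound by the zinc finger protein Su(Hw) with its partners CP190 and Mod(mdg4).

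The 4 anti-FLAG lists held 3096, 1784, 2624 and 1894 peaks for AL02, AL20, AL56 and AL64, and the anti-HMR lists of the same chromatin held 3184, 1640, 1958 and 2066. The numbers of peaks did not separate the antibodies (exact permutation test, p = 0.857). The anti-HMR list of AL56 stood apart from the other 7: 61.3% of its regions were in no other list, against 0.898% to 10.6% for the others, and 8.67% of those regions lay within 200 bp of a gene start. The main differences in shares and the counts of regions of one antibody alone are given with and without AL56. Border bins, the sharing of regions, overlap within preparations and genes bound are given only with it. Nothing in the labels says that the preparations came from separate transfections, so p-values measure the spread between these preparations, and the smallest two-sided p that 4 against 4 can give is 0.0286. Paired by chromatin, the exact sign flip test could give no p below 0.125, and every difference given below with p = 0.0286 between the antibodies had the same direction in 4 of 4 preparations.

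The sequences below show windows of anti-HMR alone, of anti-FLAG alone and of both. The dock and pyd windows (Su(Hw) core) and the CG3277 window (BEAF-32 core) show motifs that separated the antibodies, and the other 3 show high regions that do not follow that pattern. Each is the 200 bp around the midpoint of a region called in 4 of 4 lists of one antibody and 0 of 4 of the other, or in all 8, read from the dm6 reference on its plus strand and named by the gene with the nearest start, or for klar by the gene it lies in. In the first 2, capitals mark the Su(Hw) core GCATACTT or its reverse complement, and these were among the highest regions in the anti-HMR lists with that core among those whose window lay outside UTRs on X, 2L, 3L, 3R or chromosome 4. In the next 2, capitals mark the BEAF-32 core CGATA on either strand. In the last 2, they mark the CTCF core AGGTGGCG on either strand.
dock (anti-HMR only), chr2L:833269-833468: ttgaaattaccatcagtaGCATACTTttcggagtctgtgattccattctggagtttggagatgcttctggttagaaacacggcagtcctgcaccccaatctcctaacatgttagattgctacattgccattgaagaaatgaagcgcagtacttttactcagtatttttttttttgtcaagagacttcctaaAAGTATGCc
pyd (anti-HMR only), chr3R:8863288-8863487: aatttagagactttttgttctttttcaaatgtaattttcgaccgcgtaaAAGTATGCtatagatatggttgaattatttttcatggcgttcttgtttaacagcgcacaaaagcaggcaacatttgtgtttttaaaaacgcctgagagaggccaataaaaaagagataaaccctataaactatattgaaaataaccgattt
lncRNA:CR44688 (anti-HMR only), chr3L:22894808-22895007: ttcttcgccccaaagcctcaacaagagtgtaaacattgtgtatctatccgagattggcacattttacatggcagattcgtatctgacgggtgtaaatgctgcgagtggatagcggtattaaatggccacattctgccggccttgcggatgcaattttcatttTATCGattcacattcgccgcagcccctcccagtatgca
CG3277 (anti-FLAG only), chr2L:3303574-3303773: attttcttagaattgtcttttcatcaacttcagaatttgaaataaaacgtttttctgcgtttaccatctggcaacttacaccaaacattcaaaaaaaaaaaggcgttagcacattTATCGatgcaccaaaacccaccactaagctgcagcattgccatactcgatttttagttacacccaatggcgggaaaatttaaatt
klar (anti-FLAG only), chr3L:506101-506300: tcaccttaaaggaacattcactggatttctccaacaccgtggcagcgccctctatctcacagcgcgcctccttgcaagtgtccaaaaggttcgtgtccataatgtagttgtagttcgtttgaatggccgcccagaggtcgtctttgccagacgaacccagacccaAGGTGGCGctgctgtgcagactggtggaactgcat
Reg-2 (all 8 lists), chr3L:607046-607245: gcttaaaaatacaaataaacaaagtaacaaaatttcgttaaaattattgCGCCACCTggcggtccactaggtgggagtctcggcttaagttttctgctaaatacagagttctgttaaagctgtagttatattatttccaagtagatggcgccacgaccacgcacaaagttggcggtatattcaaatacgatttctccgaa
The dock window, on an arm, lies just past the end of dock, whose 3' UTR the region touches. It held the Su(Hw) core on both strands and stood at lines 13, 6, 7 and 3 of the anti-HMR lists in the order AL02, AL20, AL56 and AL64. The pyd window lies in an intron, with its midpoint 145 bp from a start of pyd, and stood at lines 47, 16, 57 and 99. Anti-FLAG gave no peak in either of them. The lncRNA:CR44688 window is intergenic in the pericentromeric territory of 3L and stood at lines 104, 22, 101 and 10 of the anti-HMR lists. In the other direction, the klar window, in a coding exon of this gene for a nuclear positioning protein, stood at lines 18, 24, 8 and 18 of the anti-FLAG lists and in no anti-HMR list. Anti-HMR had a region of its own 29 bp away in the same gene, at lines 19, 10, 168 and 23, so both antibodies had peaks at klar. The CG3277 window is intergenic and stood low in the anti-FLAG lists, at lines 2744, 1588, 2401 and 1754. The Reg-2 window was high in all lists, at lines 2, 2, 6 and 10 for anti-FLAG and 8, 44, 78 and 25 for anti-HMR.

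In percentage points, the largest difference in where the antibodies placed their peaks was at gene starts. Of the anti-FLAG peaks, 76.2% (AL02), 73.0% (AL20), 76.5% (AL56) and 72.3% (AL64) had their midpoint within 200 bp of an annotated transcript start. Of the anti-HMR peaks of the same chromatin, 61.2%, 46.6%, 27.2% and 53.3% did. The lowest anti-FLAG list was thus above the highest anti-HMR list, and the means were 74.5% ± 2.17 (SD, n = 4) against 47.1% ± 14.5 (SD, n = 4), a difference of 27.4 percentage points (exact permutation test, two-sided as all tests here, p = 0.0286; 0.05 after adjustment over 7 measures). Without AL56 the difference was 20.1 points (exact permutation test, p = 0.1, the smallest that 3 against 3 can give). The gap was present on the arms of chromosomes 2 and 3, with 75.5% against 46.7%, and on X, with 75.6% against 46.3% (exact permutation test, p = 0.0286 each). Among pericentromeric peaks the shares were 54.1% ± 8.38 and 47.6% ± 11.6 (SD, n = 4 each), and the lists overlapped (exact permutation test, p = 0.457).

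**Figure D1:**
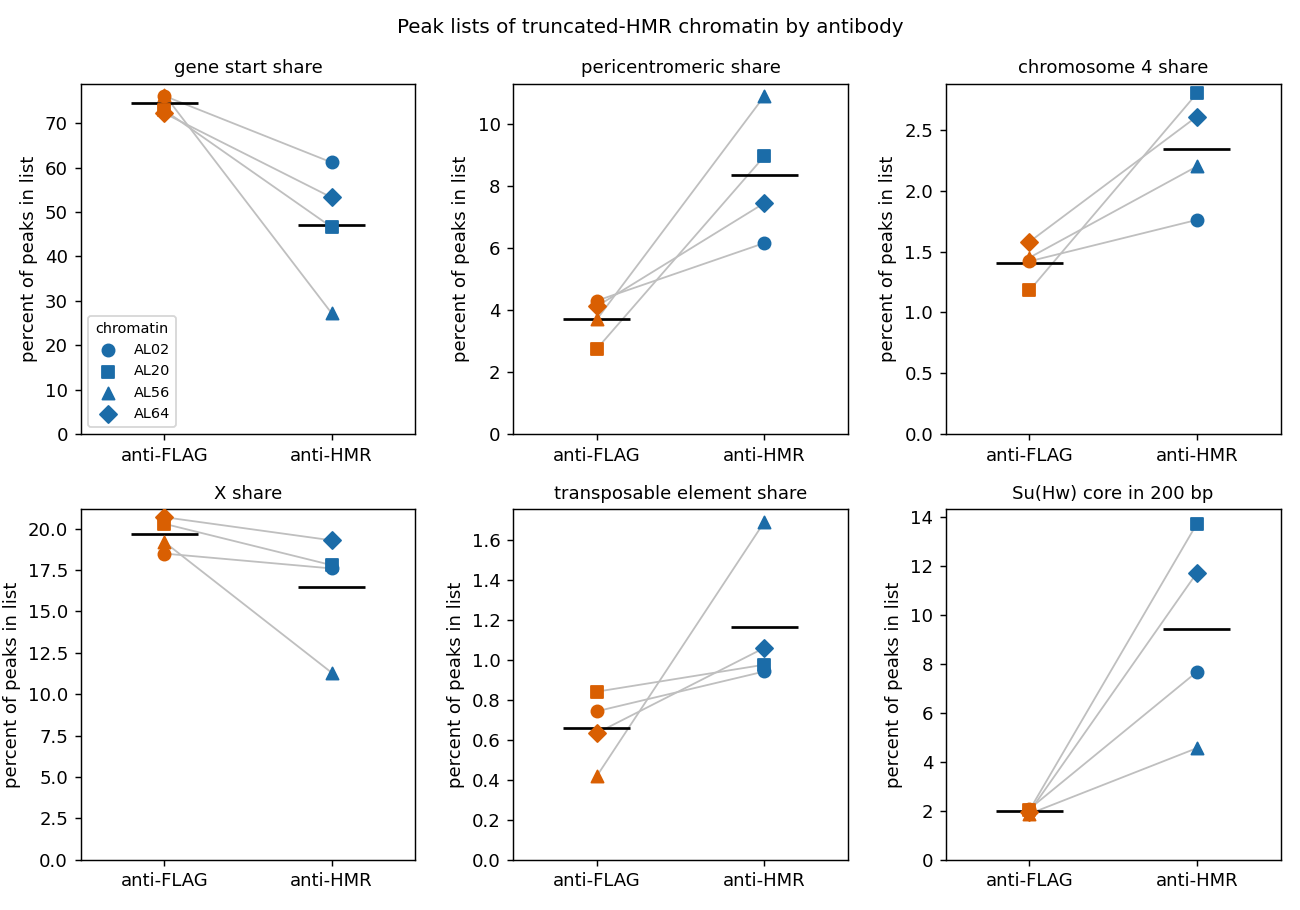
Percent of the peaks in each list (vertical axes, from 0) that fell in 5 kinds of place or held the Su(Hw) core, for anti-FLAG (orange) and anti-HMR (blue) on the same chromatin (marker shape, joined by grey lines), with the mean of 4 lists as a black bar. The 4 anti-FLAG lists lie close together at gene starts, from 72.3% to 76.5%, while the anti-HMR lists spread from 27.2% to 61.2%.

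Motifs of promoter proteins followed the gene starts. The 200 bp around the midpoint were searched on both strands for 7 short motifs. TATCGATA, bound by DREF, a regulator of growth and replication genes, was in 13.7%, 12.7%, 14.8% and 13.2% of anti-FLAG peaks (AL02, AL20, AL56, AL64) and in 9.67%, 6.04%, 3.32% and 8.18% of anti-HMR peaks. CGATA, the core of the insulator protein BEAF-32, which every TATCGATA contains, was in 54.1% ± 0.803 against 37.6% ± 7.06 (SD, n = 4 each). GTCACACT, core promoter motif 1 of M1BP, was in 11.3% ± 1.57 against 5.42% ± 2.49 (SD, n = 4 each). For these 3 motifs every anti-FLAG list was above every anti-HMR list (exact permutation test, p = 0.0286 each; 0.04 after adjustment over 7 motifs). Without AL56 the differences were 5.23 points for DREF, 13.2 for CGATA and 4.50 for motif 1. For orientation, CGATA was in 35.2% of windows at 5924 annotated starts and in 21.4% of 13751 windows spaced along the genome. Among peaks at gene starts alone, mean shares remained apart, with DREF at 16.7% against 12.1% and CGATA at 61.5% against 52.3%, a split that was not tested.

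The Su(Hw) core went the other way. It was in 2.07%, 2.02%, 1.87% and 1.95% of anti-FLAG peaks and in 7.66%, 13.7%, 4.55% and 11.7% of anti-HMR peaks of AL02, AL20, AL56 and AL64. Every anti-HMR list was above every anti-FLAG list, with means of 1.98% ± 0.0864 and 9.38% ± 4.08 (SD, n = 4 each; exact permutation test, p = 0.0286; 0.04 after adjustment). The core was in 0.49% of the gene start windows and 0.902% of the genome windows. Its share was highest away from gene starts, at a mean of 16.8% of anti-HMR peaks over 200 bp from a start against 5.17% of such anti-FLAG peaks. Of the 312 regions with the core, 310 were in at least 1 anti-HMR list and 75 in at least 1 anti-FLAG list, whereas 84.2% and 60.3% of all 5562 regions were. The GAGA factor motif GAGAGAG was also more frequent under anti-HMR, at 2.48% ± 1.38 against 1.17% ± 0.193 (SD, n = 4 each; exact permutation test, p = 0.0286; 0.04 after adjustment), but in a 100 bp window p was 0.0571, and the difference of -1.3 points (anti-FLAG minus anti-HMR) shrank to -0.686 without AL56. For the Su(Hw) core it was -7.41 points and -8.98 without AL56. GAGAGAG was in 4.73% of the gene start windows and 2.44% of the genome windows. Its anti-HMR mean was thus near the genome share, and its anti-FLAG mean was below both. The CTCF core was in 3.75% and 2.89% of peaks and the Prod satellite motif AATAACATA in 0.735% and 0.718%, and neither separated the antibodies (exact permutation test, p = 0.171 and 0.829). Base composition was close, with a mean GC content of 39.3% ± 1.28 under anti-FLAG and 38.9% ± 1.2 under anti-HMR (SD, n = 4 each; exact permutation test, p = 0.629).

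**Figure D2:**
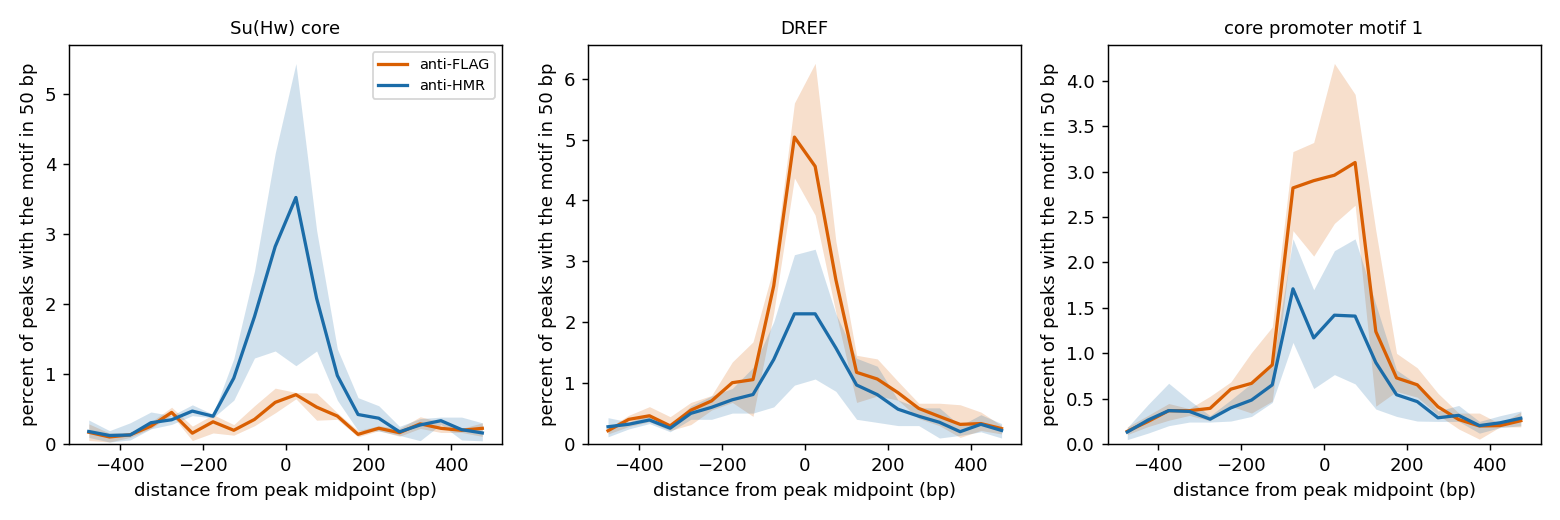
Percent of peaks with the motif in each 50 bp bin (vertical axis) by the distance of the bin from the peak midpoint in bp (horizontal axis), for the Su(Hw) core, the DREF motif and core promoter motif 1. Lines are means of 4 lists and bands run from the lowest to the highest list. The Su(Hw) core peaks just right of the midpoint at a mean of 3.52% for anti-HMR against 0.707% for anti-FLAG, and DREF peaks just left of it at 5.04% for anti-FLAG against 2.14% for anti-HMR.

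Heterochromatin took a larger share of the anti-HMR lists. Pericentromeric territories (2L from 21 Mb, 2R up to 5.6 Mb, 3L from 22 Mb and 3R up to 4.1 Mb of dm6) held 4.30%, 2.75%, 3.70% and 4.12% of anti-FLAG peaks (AL02, AL20, AL56, AL64). They held 6.16%, 8.96%, 10.9% and 7.45% of anti-HMR peaks. Anti-FLAG was lower in 4 of 4 preparations, and the means were 3.71% ± 0.692 and 8.38% ± 2.05 (SD, n = 4 each), a difference of -4.66 percentage points (exact permutation test, p = 0.0286; 0.05 after adjustment over 7 measures). Each of the 4 territories had the higher share under anti-HMR with no overlap between the antibodies, from 0.363% against 0.84% on 3R to 1.06% against 3.04% on 3L (exact permutation test, p = 0.0286 each). Chromosome 4, which is mostly heterochromatic, held 1.42%, 1.18%, 1.45% and 1.58% of anti-FLAG peaks and 1.76%, 2.80%, 2.2% and 2.61% of anti-HMR peaks, and the lists again did not overlap (exact permutation test, p = 0.0286; 0.05 after adjustment). Without AL56 the differences, anti-FLAG minus anti-HMR, were -3.8 points in the territories and -0.998 points on chromosome 4. Reads with low mapping quality were removed before peak calling, so repeats are represented by their mappable part.

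Along chromosomes 2 and 3 the gap began at the territory border. In the 1 Mb outside it, anti-FLAG lists had 3.33% ± 0.238 and anti-HMR lists 3.57% ± 0.177 of their peaks (SD, n = 4 each; exact permutation test, p = 0.257). In the first 1 Mb inside, the shares were 1.60% ± 0.353 and 3.09% ± 0.590, and in the next 1.01% ± 0.170 and 2.30% ± 0.404 (exact permutation test, p = 0.0286 each; 0.05 after adjustment over 7 bins). Beyond 3 Mb they were 0.832% ± 0.141 and 2.05% ± 0.964 (SD, n = 4 each). Inside the border every bin separated the antibodies, and outside it none of the 3 bins did.

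**Figure D3:**
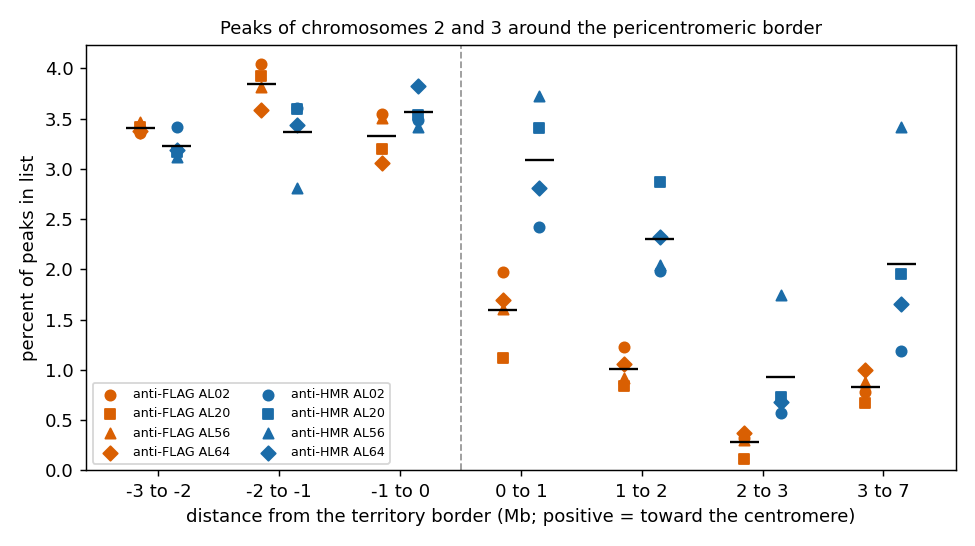
Percent of the peaks in each list (vertical axis) by distance from the border of the pericentromeric territory in Mb (horizontal axis, positive toward the centromere, border dashed), summed over the 4 territories. Markers are lists, shaped by chromatin and coloured by antibody, and black bars are means of 4. The antibodies are mixed outside the border and separate inside it, for example 1.60% against 3.09% in the first Mb.

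Annotated transposable elements held few peaks of either antibody, 0.743%, 0.841%, 0.419% and 0.634% under anti-FLAG and 0.942%, 0.976%, 1.69% and 1.06% under anti-HMR. Each antibody's lists stayed on their own side (exact permutation test, p = 0.0286; 0.05 after adjustment). The difference of -0.508 points (anti-FLAG minus anti-HMR) shrank to -0.255 without AL56, whose 2 lists were the lowest of one antibody and the highest of the other. X held 18.5%, 20.3%, 19.2% and 20.7% of anti-FLAG peaks and 17.6%, 17.8%, 11.3% and 19.3% of anti-HMR peaks, which overlapped (exact permutation test, p = 0.0857), and the difference of 3.21 points was 1.66 without AL56. In 7 of the 8 lists X peaks crowded at the bottom, making up 54.5% to 69.1% of the last 10%, and in the anti-HMR list of AL56 they made up 21.4% of it.

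The lists hold no score, and whether their order is that of peak strength is unknown, but they are not sorted by position, and lists of one antibody had shared regions in a like order (Spearman's rho across regions from 0.881 to 0.960 over 6 pairs of anti-FLAG lists and from 0.435 to 0.872 over 6 pairs of anti-HMR lists, where regions do not count as replicates). Each line number was therefore turned into a rank from 0 (top) to 100 (bottom). In the top 10% of the anti-HMR lists, 22.6%, 29.9%, 17.4% and 23.8% of peaks were pericentromeric (AL02, AL20, AL56, AL64), and in the top 10% of the anti-FLAG lists 1.62%, 1.69%, 1.53% and 1.59%. In each anti-HMR list the top 10% thus had the highest pericentromeric share of any 10%. Further down, that share was still 8.16% to 13.3% in AL56, and it rose to 12.2% in the last 10% of AL20. These shares do not say where most pericentromeric peaks stood. Gene starts showed no such gradient under anti-FLAG, at 66.7% to 73.7% in the top 10% and 70.7% to 73.5% in the last 10%.

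**Figure D4:**
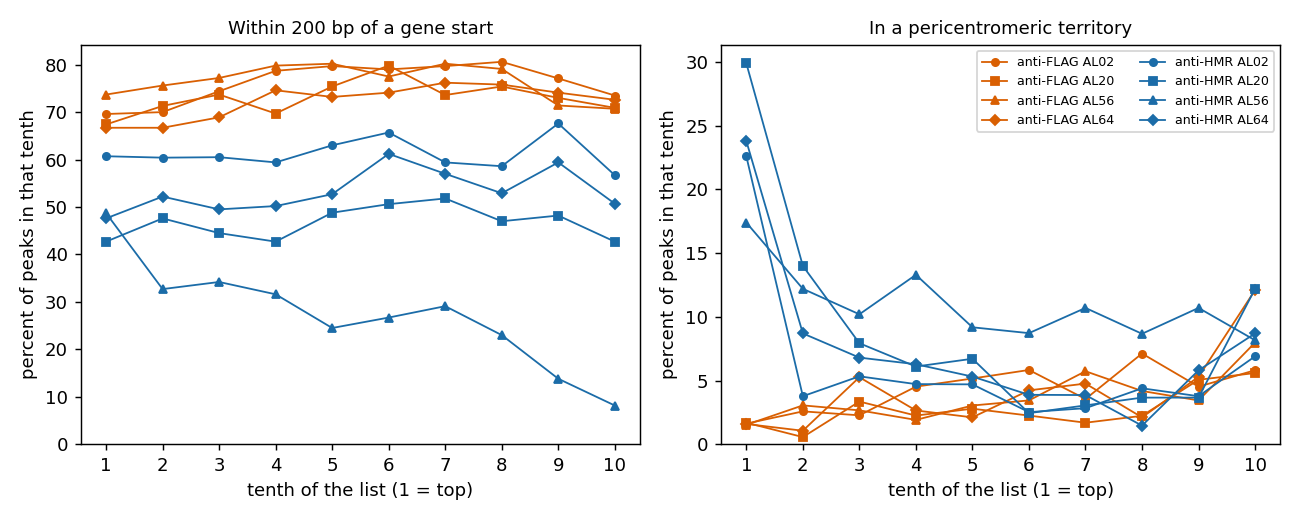
Percent of the peaks in each 10% of a list (vertical axes) that lay within 200 bp of a gene start (left) or in a pericentromeric territory (right), from the top 10% to the last 10% (horizontal axes). Lines are lists, coloured by antibody with markers by chromatin. The top 10% of the anti-HMR lists is 17.4% to 29.9% pericentromeric and that of the anti-FLAG lists 1.53% to 1.69%, and the gene start share of the anti-HMR list of AL56 falls from 48.7% to 8.16%.

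The same shift was seen for regions that both antibodies called. Of the 297 regions in all 8 lists, 24 were in a territory or on chromosome 4 and 234 on the arms. The mean rank of the heterochromatic regions minus that of the arm regions was 16.5, 23.3, 19.4 and 17.4 in the anti-FLAG lists and -0.37, -9.08, -8.54 and -5.62 in the anti-HMR lists (AL02, AL20, AL56, AL64), so they stood below the arm regions in the former and above them in the latter. The antibodies were on opposite sides in all 4 preparations, and the mean difference was 25.1 points (exact permutation test, p = 0.0286). The extreme case was an intergenic region of pericentromeric 2R (chr2R:1243428-1243728) that holds the Su(Hw) core. It was the first line of all 4 anti-HMR lists and stood at lines 874, 715, 1169 and 681 of the anti-FLAG lists.

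At the level of regions, 128 of the 5562 were called in 4 of 4 anti-HMR and 0 of 4 anti-FLAG lists (2.3%), and 35 were called in 4 of 4 anti-FLAG and 0 of 4 anti-HMR lists (0.629%). Fisher's exact test of 4 libraries against 4 gave these 163 regions its smallest p of 0.0286, and no region passed after Benjamini-Hochberg adjustment (smallest adjusted p = 0.952), so they are counts and not single calls. Both antibodies called 2476 regions at least once, 2094 regions were in 1 list only, and 297 were in all 8. Without AL56, 719 regions were in all 6 remaining lists. The counts depended on single lists: without AL56 there were 386 regions of anti-HMR alone and 38 of anti-FLAG alone. Without AL02, whose anti-HMR list was the longest, there were 157 and 297. Which antibody had more regions of its own was therefore not settled by these lists.

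**Figure D5:**
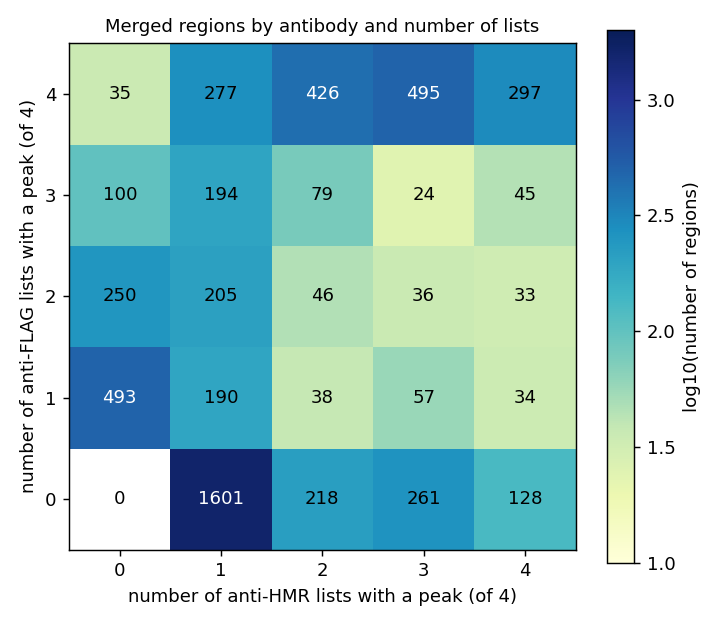
Number of merged regions (printed in each cell, colour on a log10 scale) by the number of anti-HMR lists (horizontal axis) and anti-FLAG lists (vertical axis) that had a peak in them. The bottom right cell holds the 128 regions of anti-HMR alone, the top left the 35 of anti-FLAG alone, and the 1601 regions in 1 anti-HMR list only are mostly the 1200 of AL56.

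The 128 regions of anti-HMR alone were mostly distant from gene starts and often held the Su(Hw) core. Of them, 84 overlapped a gene and 44 were intergenic. Only 25 of them (19.5%) lay within 200 bp of a gene start, against 51.2% of all regions, and 78 (60.9%) were over 1000 bp from one, against 33.5%. The Su(Hw) core was in 47 (36.7%), against 5.61% of all regions, and the DREF motif in 1 and core promoter motif 1 in 0 of them. By place, 94 were on the arms (73.4%, against 74.5% of all regions), 14 on X (10.9%, against 17.1%), 15 in the territories (11.7%, against 6.9%), 4 on chromosome 4 (3.12%, against 1.37%) and 1 on Y. Among all 537 regions in 4 anti-HMR lists, 14.3% were in the territories and 4.84% on chromosome 4, both above the shares of the 128. Of those 537, 53.6% were at a gene start, 31.1% were over 1000 bp from one, and 15.3% held the Su(Hw) core. Anti-FLAG had a peak in at least 1 list within 500 bp of 5 of the 128. The core was in 41 of the 94 on the arms and in 0 of the 15 in the territories. Among all regions it was in 256 of 4143 on the arms and in 9 of 384 in the territories, so 0 of 15 was little below the share there. Without AL56, 134 of 386 regions of anti-HMR alone (34.7%) held the core and 73 (18.9%) were at a gene start.

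Of the 35 regions of anti-FLAG alone, 25 (71.4%) were at a gene start, a share close to the 73.2% of all 1530 regions in 4 anti-FLAG lists. The DREF motif was in 11 (31.4%), against 12.6% of those 1530 and 8.7% of all regions. CGATA was in 22 (62.9%), against 53.7% and 41.2%, and the Su(Hw) core in 0, against 2.42% and 5.61%. On the arms were 28 (80%, against 74.5% of all regions), on X 6 (17.1%, as for all regions), on chromosome 4 1 and in the territories 0 (against 6.9%). Anti-HMR had a peak in at least 1 list within 500 bp of 7 of the 35. They stood low in the anti-FLAG lists, at a median rank of 61, against 36.6 for all 1530 regions in 4 anti-FLAG lists. The regions of anti-HMR alone had a median rank of 25.1 in theirs, close to the 23 of all 537 regions in 4 anti-HMR lists. The DREF share depended on the rule: of the 135 regions in at least 3 anti-FLAG and 0 anti-HMR lists, 15.6% held the motif.

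Whether a region was shared depended on its place. Of the 180 arm regions at gene starts that all 4 anti-HMR lists called, 145 (80.6%) were in all 4 anti-FLAG lists and 11 (6.11%) in none. Of the 118 arm regions over 1000 bp from a start, 50 (42.4%) were in all 4 anti-FLAG lists and 59 (50%) in none. Of the 77 pericentromeric regions called in all 4 anti-HMR lists, 16 (20.8%) were in all 4 anti-FLAG lists and 15 (19.5%) in none, so most were called by anti-FLAG in some preparations. In the reverse direction, 36 pericentromeric regions were in all 4 anti-FLAG lists, of which 16 were in all 4 anti-HMR lists and 0 in none.

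Within a preparation, 75.5% (AL02), 43.7% (AL20), 19.6% (AL56) and 68.1% (AL64) of anti-FLAG peaks overlapped an anti-HMR peak, and 73.5%, 47.6%, 26.2% and 62.4% of anti-HMR peaks overlapped an anti-FLAG peak. Sharing a chromatin did not always give the higher overlap. Anti-FLAG peaks of AL02 met anti-HMR peaks of other preparations in 17.6% to 46.8% of cases, below their own 75.5%, whereas those of AL20 did in 22.9% to 92.1% and those of AL56 in 33.6% to 77.8%. On the arms, 77.7% ± 11.5 of anti-HMR peaks at gene starts but 33.5% ± 16.1 of those elsewhere overlapped an anti-FLAG peak of the same chromatin (SD, n = 4 each). In the territories, 35.3% ± 17.1 of anti-HMR peaks overlapped an anti-FLAG peak and 69.1% ± 14 of anti-FLAG peaks an anti-HMR peak (SD, n = 4 each).

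Among heterochromatic regions of anti-HMR alone, most of those named by rank were gene starts. The start of CG40228 on 3L (chr3L:27083820-27084081) stood at lines 15, 29, 4 and 24 of the anti-HMR lists. On 2L, the 5' UTRs of Spf45, which encodes a splicing factor, and of cta, the G protein alpha subunit of gastrulation, stood at lines 135, 121, 598 and 177 and at lines 127, 129, 924 and 127. On chromosome 4, the start of RpS3A, a ribosomal protein gene, stood at lines 148, 141, 1018 and 133. That of Ank, which encodes an ankyrin and was named as a listed gene and not by rank, stood at lines 408, 287, 419 and 574. Anti-FLAG gave no peak in any of these. The AL56 list placed Spf45, cta and RpS3A far lower than the other 3 lists did. The remaining regions named by rank in heterochromatin included the starts of CG41378 and BckdhB on 2R and of CG41099 on 3R, at mean ranks of 29.2, 34.8 and 32.2. The others were intergenic, near Asator on chromosome 4 at 16.6 and near lncRNA:CR44688 on 3L (shown above) at 2.52.

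On X, the regions of anti-HMR alone with the highest rank were in the 3' UTR of Rab35, a small GTPase gene, at lines 52, 31, 76 and 81, and at the start of Sec61gamma, a subunit gene of the protein translocon, at lines 268, 170, 69 and 243. For anti-FLAG alone, the arms gave the klar exon shown above and the start of the tyrosine phosphatase gene Ptp61F, at lines 386, 432, 588 and 576. X gave an intron of D2hgdh and the start of CG8326, at mean ranks of 71.2 and 83.8, and chromosome 4 gave a 3' UTR region of Cals and sv, at 20.4.

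Regions in all 8 lists included the first line of the anti-FLAG lists. A region in the 5' UTR of CG8500 (chr3R:9784371-9784667) begins at the base next to the start of the metallothionein gene MtnA. It was the first line of all 4 anti-FLAG lists and stood at lines 9, 42, 32 and 9 of the anti-HMR lists. The constructs carry a metallothionein promoter, whose part in this peak was not tested. The start of Tlk, a kinase gene on X, stood at lines 10, 3, 3 and 4 for anti-FLAG and at 59, 186, 59 and 70 for anti-HMR. Among heterochromatic regions in all 8 lists, the start of step on 2L was high for both antibodies (mean ranks of 5.39 and 4.46), whereas the start of CG33169 on 3L was at 30 for anti-FLAG and 4.71 for anti-HMR. An intergenic region of 3R, nearest to spok, had mean ranks of 3.41 and 11.9, and one of chromosome 4, nearest to fuss, 7.53 and 20.7.

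Genes were counted as bound by an antibody when a peak overlapped them or lay within 1 kb in at least 3 of its 4 lists. Of 13968 protein-coding genes, 23.7% were bound under anti-FLAG and 15.3% under anti-HMR. The order was turned in heterochromatin, with 16.5% and 26.8% of 399 pericentromeric genes and 38.8% and 60% of 80 genes on chromosome 4. Genes bound under anti-HMR with no anti-FLAG peak in any list were 21 of the 399 (5.26%) and 7 of the 80 (8.75%), against 1.97% of all genes, and the reverse held for 1 and 0 of them, against 133 of all genes (0.952%). These counts are descriptions that include the AL56 lists, and the sets were not tested.

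The named lists of heterochromatic genes went the same way as all genes there. Of 20 matched genes that lie in pericentromeric DNA, 5 were bound under anti-FLAG and 17 under anti-HMR, and of 26 on chromosome 4, 11 and 19. Over all protein-coding genes, the shares were 16.5% and 26.8% in the territories and 38.8% and 60% on chromosome 4. The MAP kinase gene rl, the ribosomal gene RpL38 and the mitotic kinase gene Haspin had peaks in 1 anti-FLAG and 4 anti-HMR lists each. Nipped-B, the cohesin loader, had 0 and 3, Pzl 0 and 4, and the cohesin gene vtd 2 and 4, while Myo81F and Gprk1 had peaks in all lists of both. Of 9 genes for heterochromatin proteins, 3 were bound under anti-FLAG (Su(var)3-7, prod and egg) and 0 under anti-HMR, and the gene that encodes HP1a had no peak. Of 14 insulator and promoter genes, 4 and 3 were bound, with su(Hw) itself in 1 anti-FLAG and 3 anti-HMR lists and BEAF-32 in 4 and 1. Over all protein-coding genes, 23.7% and 15.3% were bound, and these short lists were not tested against that. Of 4 matched genes of the HMR complex, Hmr had no peak and Lhr had peaks in 3 anti-FLAG lists and 1 anti-HMR list. Of the 5 metallothionein genes, MtnA alone had a peak.

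The antibodies were compared in the same way on chromatin with full-length HMR-tg, to see which differences belonged to the truncated construct. The gene start gap was 27.4 points in truncated cells and 25.6 ± 10.1 (SD, n = 4) in full-length cells, and the constructs overlapped (exact permutation test, p = 0.914). For the Su(Hw) core the gap, anti-FLAG minus anti-HMR, was -7.41 points in truncated and -8.27 points in full-length cells, where the core was in 2.42% ± 0.469 of anti-FLAG and 10.7% ± 5.71 of anti-HMR peaks (SD, n = 4 each; exact permutation test between constructs, p = 0.886). The spread of both gaps was wide, so a moderate difference between constructs could not be detected. The pericentromeric gap was anti-FLAG minus anti-HMR -1.86, -6.22, -7.23 and -3.34 points in truncated cells (AL02, AL20, AL56, AL64) and 0.911, -2.34, -2.82 and -0.695 in full-length cells (AL03, AL18, AL55, AL63). These overlapped and did not pass the test (difference -3.43 points; exact permutation test, p = 0.0857). As a log2 ratio of the shares the constructs did not overlap, at -1.16 ± 0.567 against -0.165 ± 0.259 (SD, n = 4 each; exact permutation test, p = 0.0286), and without AL02 the difference in points was -4.36 (exact permutation test, p = 0.0286). Without any one of the other 7 preparations it did not pass (exact permutation test, p from 0.114 to 0.2).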

How the data were processed

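ChIP-seq peak lists of 18 libraries were deposited, of which the 8 anti-FLAG and anti-HMR lists of 4 truncated-HMR chromatin preparations were compared. Per the methods and the labels, the authors aligned reads of 50 bp (single-end) by Bowtie2 2.2.9 to the dm6 build, and SAMtools 1.3.1 removed alignments under a mapping quality of 2. For each library HOMER 4.9 (factor mode, peaks of 200 bp, fold filter F of 2) then gave a list. The deposited values are positions only (chromosome, start, end). Read depth is unknown, so peak numbers limit the precision, and Wilson intervals (95%) were computed for shares as counting error only. In the 8 lists 1 peak had another width than 200 bp.

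Peaks were placed by midpoint, with genes, transcript starts and transposable elements of Ensembl release 115 (coordinates as in dm6) and sequence of the RefSeq genome of the same build. Preparations were paired by input as the labels give it, and the main test, the exact permutation test of 4 against 4 libraries, ignored the pairs, because 4 pairs cannot go below p = 0.125. The line order was used as a rank. Within the lists neighbouring lines run through the chromosomes again and again, as ties in a sorted list would. Single regions were tested with Fisher's exact test and Benjamini-Hochberg adjustment. Regions were named by rank: the 2 highest of one antibody alone in each chromosome class, the highest in all 8 lists, and those near listed genes. Windows for sequences, the motif comparison between constructs, the search for peaks of the other antibody within 500 bp and the count over all genes were chosen after seeing the data. One region that met the rule for sequences is not reported here. The members and lists were chosen with earlier results of these data known. Merging and tests were tested on simulated data. The lists of the other libraries were not used, apart from those of full-length HMR and 1 more anti-FLAG list of truncated HMR, and inputs were not analysed here. Python 3.11.15, numpy 2.4.6, scipy 1.17.1 and matplotlib 3.10.9 were used.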

Additional observations from a re-analysis of the deposited data

Results flagged for a closer look

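Among 34 groups of 4 lists that were screened for a list far from the others, 3 had one, and chance alone sets apart about 1 in 20 groups. The anti-HMR list of AL56 was far above the other 3 in its transposable element share (1.69%) and in the median distance of its peaks from a gene start (1354.0 bp, against 115.5 to 261.0 bp). The anti-FLAG list of AL64 was below the other 3 in its share of peaks on the arms (73.4%, against 75.6% to 75.7%).

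The antibodies' difference in transposable element share differed between the constructs. It was -0.508 ± 0.521 percentage points (anti-FLAG minus anti-HMR; SD, n = 4) in truncated and 0.125 ± 0.133 in full-length cells, a difference of -0.633 points (exact permutation test, p = 0.0286; 0.171 after adjustment over 6 measures), with all 4 truncated preparations below 0 and 3 of 4 full-length ones above 0. The anti-HMR list of AL56 carried the largest part of it, at -1.27 points.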

How the results depend on the processing

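With the chromatin as replicate block (paired sign flips), the differences were unchanged by construction, at -4.66 percentage points for the pericentromeric share, -0.936 for chromosome 4, 27.4 for gene starts, -0.508 for transposable elements and 25.1 for list position, and the exact test gave each p = 0.125, the smallest that 4 pairs allow, with the same direction in 4 of 4 preparations. With 1 preparation left out, these ranged from -5.60 to -3.80, -1.14 to -0.705, 20.1 to 31.5, -0.632 to -0.255 and 22.6 to 27.8, each at an exact p = 0.1, the smallest that 3 against 3 allow. The difference in peak number, 137.5, ranged from -38.7 (without AL56) to 240.7, and was -113.8 with the fifth anti-FLAG list, which also took the X share difference to 3.79 points (exact permutation test, p = 0.0397). With every list cut to 1640 lines, the arm share differed by 6.04 points (exact permutation test, p = 0.0286) and 137 regions were of anti-FLAG alone. The rule of at least 3 of 4 against 0 of 4 gave 389 regions of anti-HMR and 135 of anti-FLAG alone, and 4 of 4 against at most 1 of 4 gave 162 and 312. With 1 preparation left out the counts ranged from 133 to 386 and from 38 to 297. The pericentromeric gap between constructs was -0.997 as a log2 ratio (exact permutation test, p = 0.0286) and ranged from -4.36 to -2.57 points without single preparations. In a 100 bp window the GAGA factor motif differed by -0.727 points (exact permutation test, p = 0.0571). The Su(Hw) core difference ranged from -8.98 to -6.00 points without single preparations, chosen after seeing the data. For the other motifs, left out in the same way, the difference kept its direction except for the Prod satellite, which ranged from -0.0113 (without AL64) to 0.0463. Border shifts, the chromosome 2 and 3 denominator, start distances of 50 and 1000 bp and mean ranks changed no call. Deviations in presence between both lists of one chromatin had correlations across regions of 0.174 (AL02), 0.00208 (AL20), -0.0159 (AL56) and 0.105 (AL64). The anti-FLAG lists of AL02 and AL64 correlated most with the anti-HMR list of their own chromatin, and those of AL20 and AL56 did not.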

Other observations

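The fifth anti-FLAG list of truncated HMR, from chromatin AL75 and another library kit, has no anti-HMR partner and stood outside the pairs. It held 1093 peaks, of which 71.3% were at a gene start, 3.11% pericentromeric, 1.19% on chromosome 4 and 22.6% on X.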
